A study of Vanessa cardui with 14 samples.

Results

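Hind wings of Vanessa cardui, the painted lady butterfly, were compared between 72 h and 5 d after pupation, the later of them labelled as still without pigment. The comparison took 4 of the 14 RNA libraries of the study, 2 from 72 h pupae and 2 from pupae at 5 d, and ran across every gene of the deposited table. The remaining 10 libraries came from hind wings of last instar larvae and of pupae at the ommochrome and melanin stages, and from red and black regions dissected out of forewings, with 2 libraries a group. They were used to share one estimate of the spread between replicates and to show what the genes of the step did at other stages. No group was treated; caterpillars were reared on long days and wings were dissected in buffer and kept in RNAlater. The forewing regions are labelled melanin stage for each sample but ommochrome stage in the protocol, so their age is uncertain. The labels give no strain, sex or number of animals for a library, so replicates may be technical and a p-value here reflects only how far these libraries scatter.

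A butterfly wing is an epithelium whose cells are laid out in the larva and built into the adult wing in the pupa. Rows of scale cells, which are related to insect bristles, grow out of this sheet, shape their surface with actin bundles and secrete a chitin cuticle before pigment is made. Ommochromes, which give red and orange, and melanins, which give black and brown, are then laid down within the scales. Insect epidermis is known for making cuticle in short waves of very abundant transcripts, each used for a brief part of the pupal stage. The table identifies genes only by the name of an assembled sequence, and 0 of 13876 names matched the reference gene list used here. No gene could therefore be given a function, no marker of scale cells, trachea, nerve or haemocytes could be checked, and only 2 genes that rose and 2 that fell are named.

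Summed FPKM (fragments scaled to gene length and to the mapped fragments of the library) were 671943 and 644128 in the 72 h libraries and 624699 and 573540 at 5 d. The read totals are unknown. Relative depth was estimated from the most frequent ratio between 2 libraries among genes at 0.15 to 3 FPKM in both. It was 1 and 0.79 at 72 h and 0.796 and 1.01 at 5 d, so by this measure neither stage was the deeper. Other differences in scale between libraries would move this ratio too. Genes listed at 0 numbered 2491 and 2693 at 72 h and 2663 and 2707 at 5 d. Levels were analysed as log2(FPKM + 1), a scale on which the change of low genes is understated. Testing covered the 10780 genes that reached 1 FPKM in 2 or more of the 14 libraries.

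The 72 h libraries stood far apart from each other, also in their most abundant genes. None (0) of the 10 most abundant genes of one was among the 10 most abundant of the other, whereas the 5 d libraries shared 8 of 10 and the replicates of the other groups shared 8 or 9. The most abundant gene of replicate 1 was at 72903 FPKM there and at 16.2 FPKM in replicate 2. The most abundant gene of replicate 2 was at 44806 FPKM there and at 88.8 FPKM in replicate 1. Among the 10 genes with the highest mean at 72 h, 9 had replicates over 5-fold apart and the median ratio between replicates was 269.3. Among the 10 highest at 5 d that ratio was at most 1.98.

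The 72 h replicates differed more than the 5 d replicates at every level of expression. Genes were placed by their mean over the 10 libraries outside the step, a choice made after the values were seen. For the 1361 genes under 1 FPKM there, the SD of replicate 2 minus replicate 1 was 1.38 log2 at 72 h and 0.651 at 5 d. It was 1.03 and 0.633 between 1 and 10 FPKM, 1.21 and 0.614 between 10 and 100 FPKM, and 1.53 and 0.835 for the 702 genes over 100 FPKM. A tested gene under 1 FPKM there may have passed the filter through a library of the step. Placed by the mean of the 4 libraries of the step, the SDs were closer for low genes, 0.546 and 0.467 under 1 FPKM. They were 0.853 and 0.654 between 1 and 10 FPKM, 1.33 and 0.672 between 10 and 100 FPKM, and 2.86 and 0.768 over 100 FPKM. Counted singly, 153 genes at 72 h lay at least 3 log2 higher in replicate 2 and 180 at least 3 log2 higher in replicate 1. At 5 d there were 8 and 38 such genes.

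**Figure D1:**
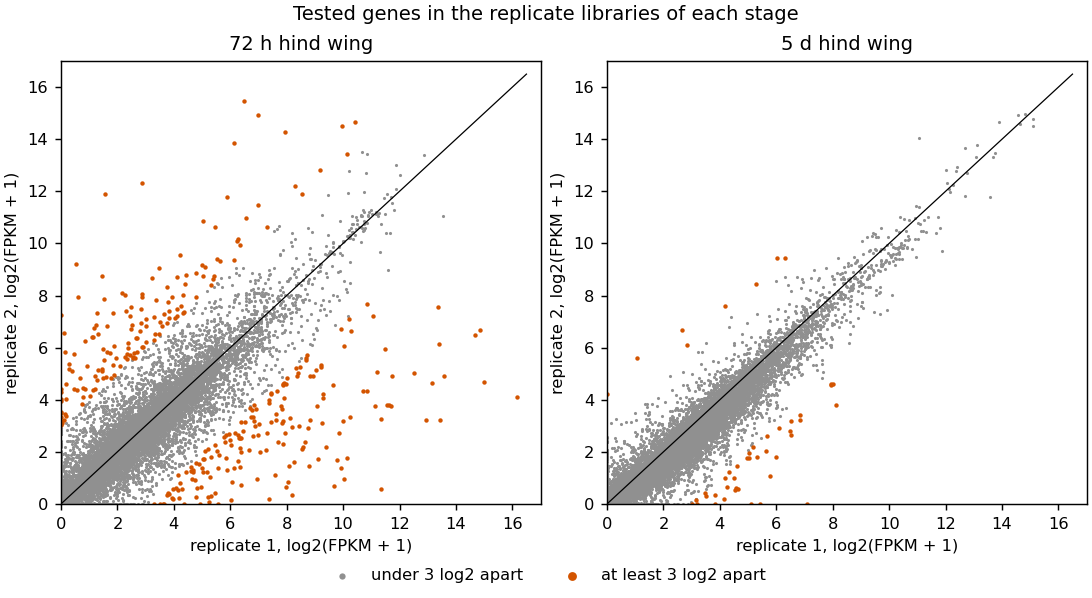
Each point is 1 of the 10780 tested genes, placed by its log2(FPKM + 1) in replicate 1 (x axis) and replicate 2 (y axis) of the 72 h (left) and 5 d (right) hind wing, with genes at least 3 log2 apart in orange and the line of equality in black. At 72 h 153 and 180 genes lie that far above and below the line, many of them very abundant in 1 library, against 8 and 38 at 5 d.

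The genes that parted the 72 h libraries also had different levels at the neighbouring stages. Those at least 3 log2 higher in replicate 1 had a median of 7.66 FPKM in the larva and 8.2 FPKM at 5 d. Those at least 3 log2 higher in replicate 2 had a median of 2.69 FPKM in the larva and 21.3 FPKM at 5 d, and 111 of these 153 reached 5 FPKM at 5 d against 104 of the 180. Replicate 2 also ranked genes more like the 5 d mean (Spearman correlation 0.774 across 10780 genes, against 0.761 for replicate 1) and less like the larval mean (0.696 against 0.732). Genes are not independent, so these correlations only describe the libraries. The labels give both libraries the same age of 72 h. Whether both wings had reached the same point of the pupal stage, or whether both labels are right, was not tested, and every 72 h mean and every change from it carries this limit.

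From 72 h to 5 d, 2337 of 10780 genes (21.7%) changed in limma's moderated test (Benjamini-Hochberg adjusted p under 0.05), 1015 upward (9.42%) and 1322 downward (12.3%). At an unadjusted p under 0.05 there were 3675 (34.1%). The test shared 1 spread over all 7 groups. Across tested genes the SD between replicates was 1.19 log2 at 72 h and 0.429 to 0.725 in the other groups. The shared spread thus tends to understate that of 72 h, which makes these counts liberal. With a spread of its own for each group 980 genes passed. The median log2 change was 1.92 among genes that rose, from 2.98 to 20.9 FPKM in the medians of the stage means, and -1.36 among genes that fell, from 19.5 to 5.23 FPKM. A change of at least 2 log2 was made by 482 (47.5%) of the genes that rose and 346 (26.2%) of those that fell. At least 5 log2 was reached by 80 and 55 genes, and at least 7 log2 by 31 and 18. In a whole wing, fewer cells of a type and less RNA per cell cannot be told apart.

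By the same levels in the other 10 libraries, rises were most frequent among abundant genes, while falls were about as frequent at each level. Of genes under 1 FPKM there, 5.66% rose and 11.2% fell. The shares were 5.55% and 11% between 1 and 10 FPKM, 12.2% and 13.8% between 10 and 100 FPKM, and 26.5% and 14.1% over 100 FPKM. Placed instead by the mean of the 4 libraries of the step, both shares climbed with level. Under 1 FPKM 2.13% rose and 2.36% fell, and over 100 FPKM 21.7% rose and 25.8% fell. The even share of falls therefore depends on the placing. Both 5 d libraries lay above both 72 h libraries for 2125 genes (19.7%) and below them for 3539 (32.8%), 52.5% in all, and every gene that rose or fell was among these. The 3327 others that did not overlap had a median absolute change of 0.585 log2 and did not pass the test. A comparison of 2 libraries against 2 cannot go below p = 0.333 in an exact permutation test, so single genes were tested only in the fit across all genes.

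How many genes passed depended on how the spread was estimated and on the scaling. With a spread of its own for each group limma called 980 genes, 517 higher and 463 lower, and with the 4 libraries alone it called 354, 240 higher and 114 lower. All 980 and 352 of the 354 were also among the 2337. Median-of-ratios factors shifted the median change of all tested genes from -0.14 to 0 log2 and gave 1388 higher and 1000 lower. Without 5 d replicate 1 the split was 667 higher and 1145 lower, and without 5 d replicate 2 it was 987 and 660. Many of the calls were lost when each of the 4 libraries was left out in turn. None of the 28 alternatives turned a call to the opposite direction. Every called gene had libraries that did not overlap between the stages, so this outcome was largely fixed beforehand.

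**Figure D2:**
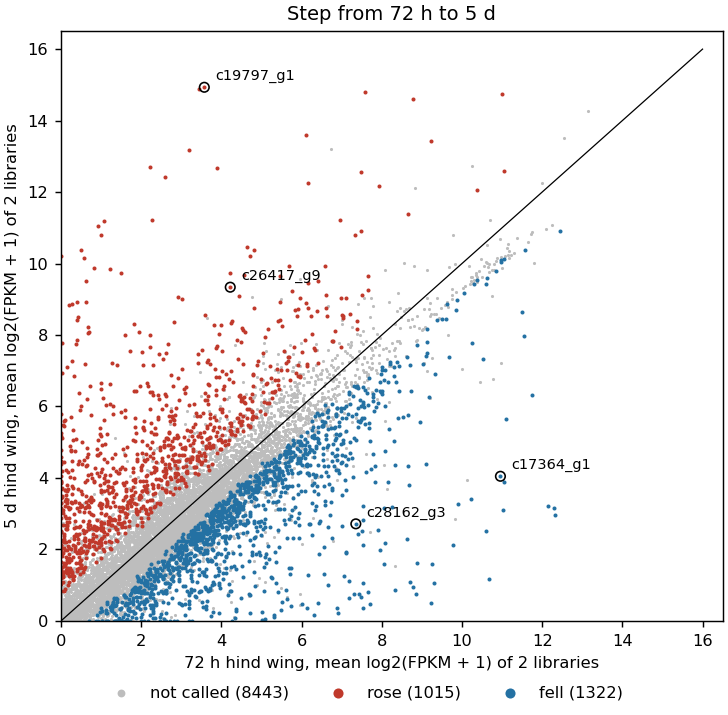
Each point is a tested gene, placed by its mean log2(FPKM + 1) over 2 libraries at 72 h (x axis) and at 5 d (y axis), with the genes that rose in red, those that fell in blue, the rest in grey and the 4 named genes circled. Several genes rose into the range above 12 on the log2 axis, and many abundant genes near 10 to 12 lie together just below the line of equality (drawn in black).

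A small set of transcripts, most of them far lower at 72 h, held a large part of all summed FPKM at 5 d. Such a concentration was not particular to 5 d. The 10 most abundant genes of each single library held 33.7% and 31.9% at 72 h and 33.9% and 38.4% at 5 d. Their share was 11.6% and 12.2% in the larva and 27.2% to 32.4% in the later groups. Gene c19797_g1, the most abundant of all at 5 d and the highest among genes that rose by at least 3 log2, was at 6.53 and 17.8 FPKM at 72 h and at 35026 and 27908 FPKM at 5 d. The 5 d libraries were both far above the 72 h ones (log2 change 11.36, SE 0.664, limma adjusted p = 3.19e-06). It held 5.61% and 4.87% of all summed FPKM at 5 d. It was lower again at the ommochrome stage, at 1125 and 2491 FPKM, and in the melanin hind wing, at 1471 and 584.9 FPKM. In the larva it was at 5.66 and 8.1 FPKM, and the forewing regions ranged from 1.43 to 10.3 FPKM, in the same low range as at 72 h. Of 17 genes that reached 5000 FPKM in a hind wing library and stayed under 1 FPKM in the forewing, 11 were at 1 FPKM or more in all 10 hind wing libraries, and whether such low values are RNA of that wing or reads of another library was not tested. The 72 h level of c19797_g1, and with it the size of its change, carries this limit.

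Over all tested genes 9.42% rose and 12.3% fell. Choosing genes by their 5 d mean favours rises, so the direction of the following counts is in part fixed by the choice. Of the 10 genes with the highest mean at 5 d, 8 rose, 0 fell and 2 did not pass the test. The pair that did not pass was abundant at both stages, with means of 9168 and 13625 FPKM at 72 h and 20516 and 11804 FPKM at 5 d. Of the 8 that rose, 4 were under 100 FPKM at 72 h and 4 were between 1062 and 3870 FPKM. In those latter 4 replicate 2 was the higher 72 h library. One of them, for example, was at 6.24 FPKM in replicate 1, 5129 FPKM in replicate 2 and 35160 and 23357 FPKM at 5 d. Together the 10 genes held 1.45% and 8.38% of summed FPKM at 72 h and 33% and 37.3% at 5 d.

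These 10 genes divided by what they did later. All but 1 averaged 1000 FPKM or more at the ommochrome stage, and all but 1 in the melanin hind wing. In the forewing regions 6 stayed above 1000 FPKM and 4 were under 100 FPKM. Only 1 of the 10 had reached 100 FPKM in the larva, at a mean of 10747 FPKM. Their share of summed FPKM was 19.2% and 21% at the ommochrome stage, 23% and 17.7% in the melanin hind wing and 9.52% to 15.4% in the forewing regions.

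The 10 genes with the highest mean at 72 h mostly owed that mean to 1 library, so a lower 5 d mean does not by itself show a fall. Of these 10, 5 were under 100 FPKM at 5 d and 3 stayed above 1000 FPKM. In limma 3 of the 10 fell and 0 rose, a direction that choosing genes by their 72 h mean favours. The highest of all had means of 36460 FPKM at 72 h and 14.2 FPKM at 5 d and did not pass (log2 change -6.20, SE 2.76, limma adjusted p = 0.145). Its 72 h libraries were the pair at 72903 and 16.2 FPKM, the lower of them close to the 5 d libraries at 13.9 and 14.6 FPKM. The 10 genes held 25.5% and 24.3% of summed FPKM at 72 h and 4.99% and 6.72% at 5 d. Only 2 genes were in the lists of both stages.

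**Figure D3:**
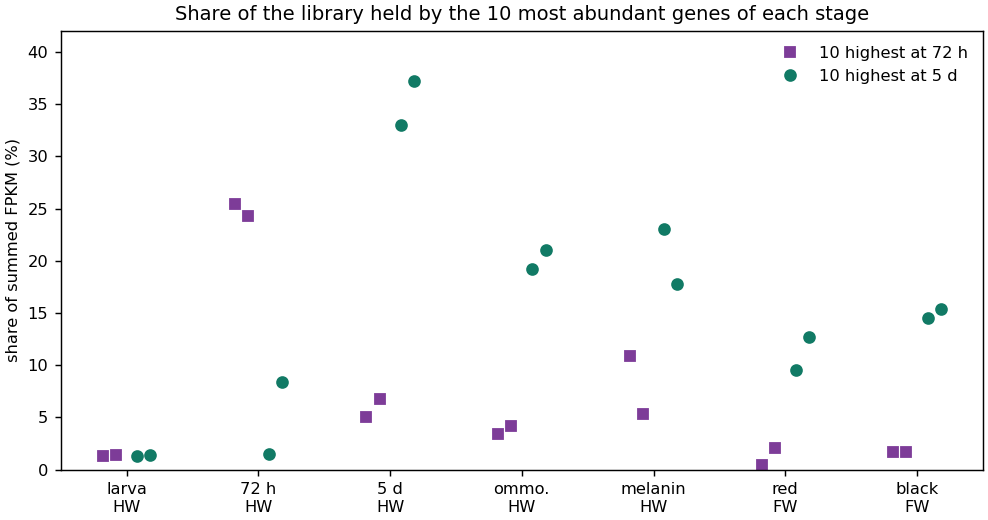
Points give, for each of the 14 libraries, the share of summed FPKM (in percent) held by the 10 genes with the highest mean at 72 h (purple squares) and at 5 d (green circles), with groups on the x axis (HW hind wing, FW forewing, ommo. ommochrome stage). The share of the 5 d genes runs from 1.45% and 8.38% at 72 h to 33% and 37.3% at 5 d and stays above 9% in every later library, while that of the 72 h genes is at most 10.8% in any library of another stage. Not shown, the 10 most abundant genes of each single library held 33.7% and 31.9% at 72 h and 33.9% and 38.4% at 5 d.

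Gene c17364_g1 was one of those that fell. It had the highest 72 h mean among genes that fell by at least 3 log2, at 125.2 FPKM in replicate 1, 31402 FPKM in replicate 2 and 14.4 and 16.7 FPKM at 5 d. Both 72 h libraries exceeded both 5 d libraries, and they lay far from each other (log2 change -6.91, SE 1.82, limma adjusted p = 0.0234). With replicate 1 alone to stand for 72 h the change was -2.93 log2, and with replicate 2 alone it was -10.89. The call was lost without either 5 d library (adjusted p = 0.0851 and 0.0862), and over all alternatives the adjusted p ranged from 1.1e-06 to 0.228. In the 10 other libraries this gene was between 0.24 and 10.8 FPKM.

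A set of genes was kept that were measured alike in both replicates and were not scarce at either stage. With replicates within 1.5 times and stage means of 5 FPKM or more, 111 genes rose and 327 fell, by medians of 1.09 and -1.03 log2. Over all tested genes 9.42% rose and 12.3% fell, and no share is given here of the tested genes within these limits. Of all calls 43.4% were rises in the main fit and 58.1% with median-of-ratios factors. The split of this set is thus not read as an excess of falls. The largest rise in the set was that of c26417_g9, from 15.8 and 19.7 FPKM at 72 h to 536.3 and 778.3 FPKM at 5 d (log2 change 5.12, SE 0.321, limma adjusted p = 4.58e-06). The groups did not overlap. Its level went on to 6095 and 4246 FPKM at the ommochrome stage and was between 4458 and 7498 FPKM in the melanin hind wing and both forewing regions, against 55.9 and 34.3 FPKM in the larva. It shared its assembled component with other tested genes, so its reads may be divided between similar sequences.

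The largest fall in that set was that of c28162_g3, from 176.3 and 149.7 FPKM at 72 h to 5.2 and 5.96 FPKM at 5 d (log2 change -4.64, SE 0.338, limma adjusted p = 1.13e-05). The 72 h libraries were the only ones above 13 FPKM. The larva had 0.09 and 0.03 FPKM, and the later hind wings and forewing regions had 4.26 to 12.5 FPKM. The gene was thus scarce in the larva, highest at 72 h and intermediate in every later group. The calls of c19797_g1, c26417_g9 and c28162_g3 held in all alternatives in which they could be tested, with adjusted p of at most 0.0204, 0.0313 and 0.0303.

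**Figure D4:**
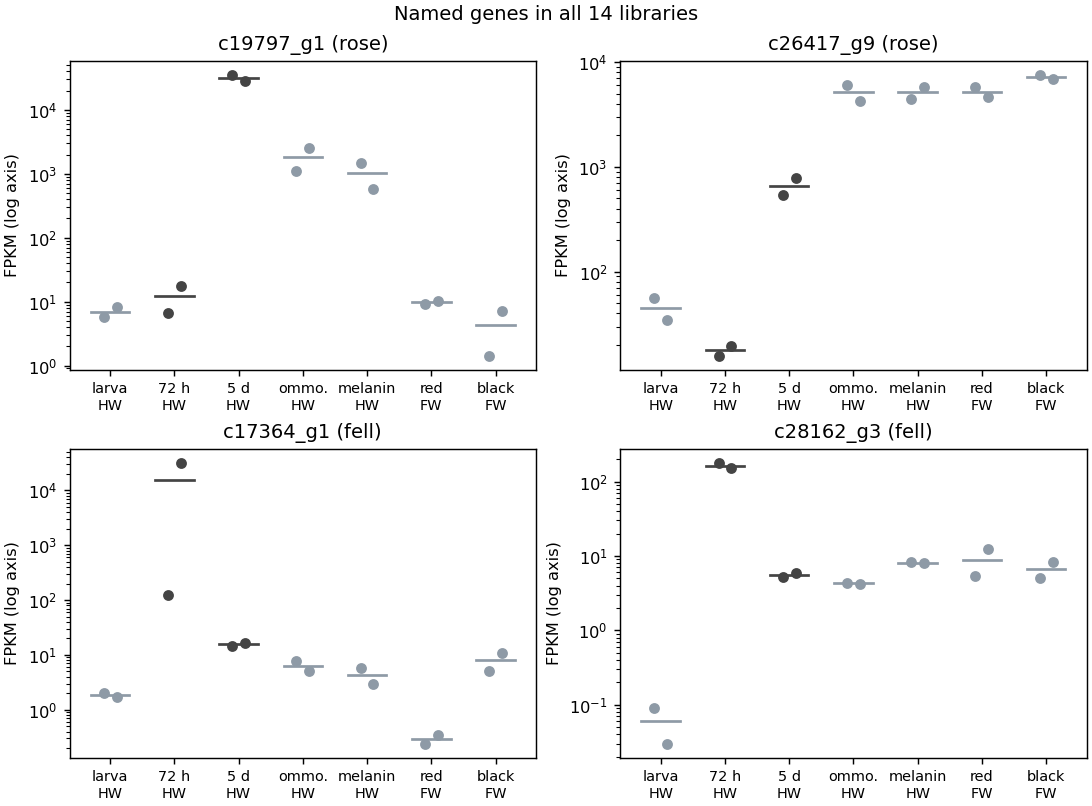
FPKM of the 4 named genes on log axes, with each library as a point, the group mean as a bar and the 72 h and 5 d hind wings in dark grey (HW hind wing, FW forewing, ommo. ommochrome stage). Gene c19797_g1 peaks at 5 d, c26417_g9 rises at 5 d and further later, c17364_g1 has 72 h libraries at 125.2 and 31402 FPKM, and c28162_g3 is highest at 72 h.

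A further 108 genes (0.778% of 13876) went from under 1 FPKM in both 72 h libraries to at least 5 FPKM in both 5 d libraries, a choice that fixes their direction. Their median was 0.208 FPKM at 72 h and 19.9 FPKM at 5 d, with a highest mean of 1345 FPKM. Most were still at 5 FPKM or more later, 74 at the ommochrome stage and 71 in the melanin hind wing. Over all tested genes those shares were 56.1% and 57.5%, against 68.5% and 65.7% of the 108. In both hind wing pigment stages and both forewing regions, 55 of the 108 were at 5 FPKM or more. In the larva 77 were under 1 FPKM and 19 were at 5 FPKM or more. Only 10 were under 1 FPKM in every library other than those of 5 d.

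The opposite change, from at least 5 FPKM in both 72 h libraries to under 1 FPKM in both at 5 d, was made by 49 genes (0.353%). Their median was 24.2 FPKM at 72 h and 0.37 FPKM at 5 d. Most were low later: 39 of the 49 were under 1 FPKM at the ommochrome stage and 35 in the melanin hind wing. Among all tested genes 15.9% and 16% were that low, but a gene high at 72 h can pass the filter without being expressed elsewhere. In each of these groups 2 of the 49 were at 5 FPKM or more. In the larva 28 were under 1 FPKM and 11 at 5 FPKM or more. The 72 h stage was the only one with these transcripts at 1 FPKM or more, in any library, for 15 genes. The counts change with single libraries. Without 72 h replicate 1 or 2 there were 166 or 177 genes turned on and 110 or 116 turned off. Without 5 d replicate 2 there were 174 turned on, and without 5 d replicate 1 there were 80 turned off.

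The genes of the step were then followed in groups whose libraries the comparison does not use. Genes that rose had a median of 6.88 FPKM in the larva, then 18.3 and 20.1 FPKM at the ommochrome and melanin stages of the hind wing and 13.7 and 12 FPKM in the red and black regions. Genes that fell had a median of 16.2 FPKM in the larva, 7.29 and 7.18 FPKM at the later stages and 7.27 and 6.29 FPKM in the red and black regions. In both sets the later medians were thus nearer to that of 5 d than to that of 72 h on the log2 scale. Of the genes that rose, 198 (19.5%) had at least 1 FPKM at the ommochrome stage and less in the larva, against 7.33% of all tested genes. Among the 262 that rose by at least 3 log2 that share was 34%. Of the 152 that fell by at least 3 log2, 29 (19.1%) were under 1 FPKM in both the larva and the ommochrome stage. The share of all tested genes was 7.56%. A forewing region had at least 1 FPKM for 78 of the 152 (51.3%), against 81.5% of all tested genes. A gene high at 72 h or 5 d can pass the filter without being expressed elsewhere, so such differences from all tested genes follow in part from the filter.

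**Figure D5:**
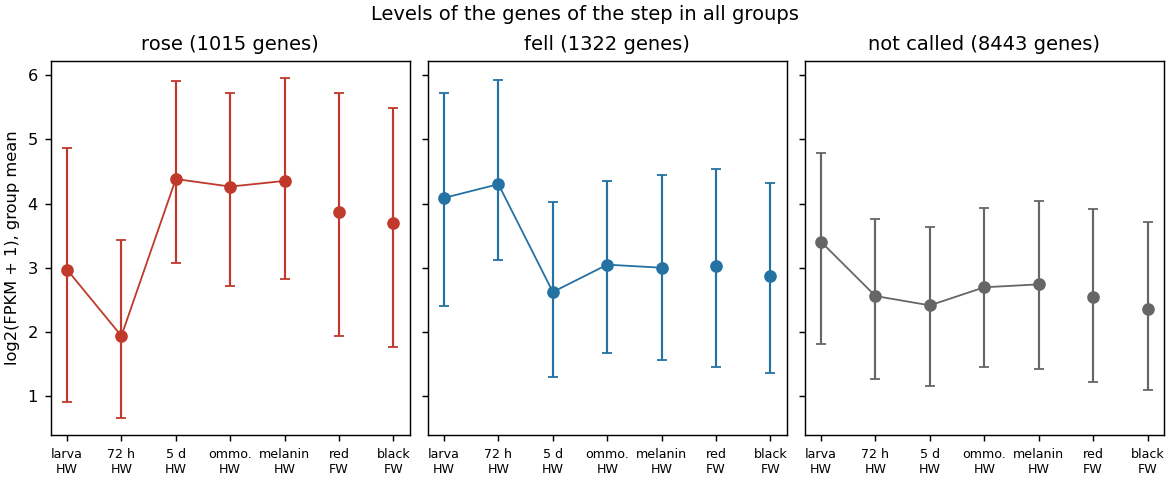
Median (points) and interquartile range (bars) over genes of log2(FPKM + 1), averaged over the 2 libraries of each group, for the 1015 genes that rose, the 1322 that fell and the 8443 that did neither (HW hind wing, FW forewing, ommo. ommochrome stage; lines join the hind wing stages). The median of the genes that rose stays near its 5 d value at the hind wing pigment stages, and that of the genes that fell stays below its larval and 72 h values, while single genes such as c19797_g1 depart from this.

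The ommochrome hind wing was compared with the larval one, a contrast that shares no library with the step. Of the genes that rose from 72 h to 5 d, 492 (48.5%) were higher at the ommochrome stage than in the larva in limma, where 12.9% of all tested genes were, and these made up 35.4% of the 1390 genes higher in that contrast. Of those that fell, 799 (60.4%) were lower, where 43.7% of all tested genes were, or 17% of the 4707. The contrasts share each gene's estimate of spread. Both shares and their backgrounds moved with scaling. The first was 53.2% against 19.5% of tested genes with median-of-ratios factors and 58.2% against 22.2% without the most abundant genes. The second was 32% against 18.7% and 28.1% against 14.8%. With a spread of its own for each group, the first was 60.2% against 15.6% and the second 57.5% against 50.2%. A further 194 of the genes that rose (19.1%) were lower at the ommochrome stage than in the larva, and 93 of those that fell (7.03%) were higher.

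In the main fit, genes that differed between the red and black forewing regions made up a share of the step close to that of all tested genes. Of the 2337 genes that changed, 20 were among the 81 that limma called between the regions (0.751% of tested genes). Of the genes that rose 14 (1.38%) and of those that fell 6 (0.454%) were among them, and no test was made of these small counts.

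The most abundant transcripts of the larval wing, mostly had lower values at 5 d than at 72 h. The 100 genes with at least 1000 FPKM in both larval libraries, and replicates within 1.5 times there, were chosen after the values were seen but without any library of the step. Their median went from 1019 and 1069 FPKM at 72 h to 767.7 and 524.1 FPKM at 5 d, with a median log2 change of -0.73 against -0.14 for all tested genes, and 83 of the 100 lay below 0. In limma 22 fell and 7 rose, against 12.3% and 9.42% of all tested genes, most of which are far less abundant. Among genes over 100 FPKM in the mean of the 4 libraries of the step, 25.8% fell and 21.7% rose. By the mean of the 10 other libraries those shares were 14.1% and 26.5%. The share that fell is thus no clear excess among abundant genes. The median was -0.47 with median-of-ratios factors, which put the median of all genes at 0, and -0.33 with quantile normalization, where that of all genes was -0.09. It was -1.02 without 5 d replicate 1 and -0.48 without 5 d replicate 2. Most of the 100 did not pass the test.

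Genes of the same assembled component, which may be pieces or close copies of a gene, were called together in some components. In 1513 components with several tested genes, 546 held at least 1 gene that changed, and 195 of these held several. The number expected of unrelated genes was not computed, so these counts do not show how far members change together. In 68 of the 195 all of the called genes rose, in 105 all of them fell and in 22 some rose and some fell. The share called among the 3523 genes of such components was 21.6%, near the 21.7% of all tested genes. Reads can be divided between the genes of a component, so the values of single members are less certain than those of other genes.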

How the data were processed

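Libraries of polyadenylated RNA from wings were sequenced as read pairs on an Illumina instrument, per the labels' protocols. Bowtie was used, per the submitters' processing notes, with no version given; the series title names a de novo transcriptome, and the sources used here do not give the program that made the values. The authors deposited FPKM, 1 column per library. FPKM are relative to the library, so a rise of abundant genes lowers all others, and total depth is unknown. Relative depth was read from the most frequent ratio between 2 libraries, over genes at 0.15 to 3 FPKM in both. The 6 pairwise ratios fitted within 0.01 log2.

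Genes reaching 1 FPKM in 2 or more libraries were analysed on log2(FPKM + 1) with limma 3.58.1 in R 4.3.3: 7 group means over 14 libraries, no covariate, 7 residual and 2.88 prior degrees of freedom, a spread prior following the mean, two-sided tests and Benjamini-Hochberg adjustment over 10780 genes. The model was tested on simulated data in which a gene had the same spread in every group. The 72 h replicates lay further apart than those of other groups, so the simulation cannot show error rates for this comparison. Descriptions used Python 3.11.15, NumPy 2.4.6, pandas 2.3.3 and matplotlib 3.10.9.

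The genes, groups of genes and tests were chosen with earlier results of these data known. Named genes were, in each direction, the one with the highest mean among non-overlapping changes of at least 3 log2 and the one with the largest change among genes with at least 5 FPKM at both stages and replicates within 1.5 times. Lists of genes by function could not be applied, because the table pairs no identifier with a name. Alternatives were other scalings, pseudocounts, filters, sets of libraries, estimates of spread, a replicate block and leaving out each library. Same-numbered 72 h and 5 d libraries did not deviate together (correlation 0.0123 across genes), so the numbers were not taken as pairs.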

Additional observations from a re-analysis of the deposited data

How the results depend on the processing

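Of the 28 alternatives, 25 kept the count of 2337 changed genes within 1.5 times. The exceptions were the 4 libraries alone (354 genes, 240 higher and 114 lower), a spread for each group (980, 517 higher and 463 lower) and a replicate block in the 4 libraries (296, 210 higher and 86 lower), which leaves 1 residual degree of freedom. The hind wing libraries alone gave 813 lower. A replicate block in all 14 libraries gave 2279 genes and changed no call of a named gene. With 1 library left out the count ran from 1647 to 2403, with 667 to 1092 higher and 660 to 1388 lower. The higher share of the calls was 43.4%, and 58.1% with median-of-ratios factors, 57.4% without the most abundant genes (1276 higher, 946 lower) and 52% with FPKM totals made equal (1152 and 1063). The call of c17364_g1 was lost in the hind wings alone, the 4 libraries alone and the block in them (adjusted p = 0.0583, 0.228 and 0.166).

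Genes that rose and were higher at the ommochrome stage than in larvae numbered 739 with median-of-ratios factors and 743 without the most abundant genes. With a spread for each group they numbered 311, or 60.2% of the genes that rose, against 15.6% of all tested genes. Genes that fell and were lower there numbered 320, 266 and 266 under these settings, 426 with totals made equal, 446 in the hind wings alone and 370 to 857 with a library left out. The count of 20 step genes among those that differ between forewing regions was 11 with a pseudocount of 0.1, 33 with a spread for each group and 6 to 36 with a library left out. Genes turned on numbered 207 and turned off 124 with 2 FPKM on the high side, and 131 to 177 and 66 to 116 with a library left out. With a pseudocount of 0.1 the SD between 5 d replicates was 1.01 log2. The 50 most abundant genes held 51.7% and 53% of summed FPKM at 72 h and 53.8% and 59.5% at 5 d. The causes of these shifts were not tested. With 1 library of a stage left out, the lone library is assumed to vary like the other groups.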

Other observations

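Some genes that were very abundant in 1 hind wing library had low but measurable levels in all others. Of the 17 genes that reached 5000 FPKM in a hind wing library and were under 1 FPKM in all 4 forewing libraries, 11 (64.7%) had at least 1 FPKM in all 10 hind wing libraries. For genes that reached 500 to 5000 FPKM this held for 2 of 55 (3.64%), and for genes that reached 50 to 500 FPKM for 7 of 139 (5.04%). The median of the 17 genes was 3.02 and 4.43 FPKM in the larval libraries, and their median highest forewing value was 0.18 FPKM. The most abundant gene of 72 h, at 72903 FPKM in replicate 1, was at 8.39 to 40.2 FPKM in each of the other 9 hind wing libraries and at 0.13 to 0.34 FPKM in the forewing ones. All 17 genes were higher in melanin replicate 1 than in melanin replicate 2, with medians of 13.2 and 1.71 FPKM. What these low levels stand for was not tested.

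The share of genes higher in replicate 2 differed between genes that are high late and genes that are high early. Among the 1390 genes higher in the ommochrome than in the larval hind wing, 54.2% were higher in 72 h replicate 2 than in replicate 1, and among the 4707 genes lower there, 43.7% were, against 46.2% of all tested genes. At 5 d the shares were 35.8%, 24.3% and 27%, and the median gene lay -0.24 log2 lower in replicate 2. These genes were called without the levels of the step's libraries, which enter only the estimate of spread, and the differences in share were not tested.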
